A study of Mus musculus with 10 samples.

Results

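C2C12 is a mouse myoblast line that stops dividing and fuses into multinucleated myotubes when serum is lowered. Here the control culture taken on differentiation day 8 was compared with the control culture taken on day 6, which are 2 of the 10 samples of a study on the ubiquitin ligase Huwe1, the deubiquitinase USP10 and the loss of the general transcription factor TBP during myogenesis. All cultures were propagated in DMEM with 10% fetal bovine serum, and both compared cultures had been moved to DMEM with 2% horse serum at confluence. The day 6 control was labelled wildtype with no agent named. The day 8 control was labelled as carrying non-targeting RNA, while the header of its table called it wild type. For Huwe1 knockdown in formed myotubes, the methods describe lentiviral concentrate with polybrene from differentiation day 4 for 2 days, followed by puromycin for 2 days, and they do not spell out whether the day 8 control went through the same steps. Day of differentiation and handling therefore cannot be told apart in any difference given here.

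Each control was 1 library of oligo(dT)-selected RNA from 1 cell line, so no difference between the days had a replicate check and no test could be made. Levels are FPKM, fragments normalised to transcript length and library size, and are comparable between genes because they are per length. Of the 23417 genes joined on their identifier, 11525 reached 1 FPKM in at least 1 of both control columns. They are called the genes tested, and 10514 of them reached it in both. A gene that reached it in 1 column alone entered through its higher value, which favours a difference in that direction. Differences are log2 of day 8 over day 6 after adding 0.01 FPKM, less the median over those 10514 genes, which was 0.06. The higher value of the last gene kept was 1.0012 FPKM and that of the first gene left out was 0.99991 FPKM. A deposited table of the USP10 experiment holds another control column whose header names the same day 6 reads but whose values differ. It is called the second day 6 column, it could not be tied to a library of its own, and it serves as a yardstick for how far 2 columns of 1 stage can lie apart. Where 3 levels of a gene follow each other, they are those of the day 6 control, the second day 6 column and the day 8 control, and where 2 differences or medians are given, the first is against the day 6 control and the second against the second column.

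Myoblast differentiation joins withdrawal from the cell cycle with the switch to muscle genes. Withdrawal rests on CDK inhibitors and on Rb-family complexes that silence the E2F genes of S phase. Through the DREAM complex at CHR elements, the Rb family also silences the genes of G2 and mitosis. Some C2C12 cells do not fuse and stay as mononucleated reserve cells, which resemble quiescent satellite cells and use Notch signalling. The integrated stress response works through ATF4, which is translated when eIF2 is phosphorylated and drives genes of amino acid supply, while the ER folding response relies more on XBP1 and ATF6.

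Levels were at least 2-fold higher in the day 8 than in the day 6 control in 1491 genes, which is 12.9% of those tested, and at least 2-fold lower in 754 genes, which is 6.54%. In either direction 19.5% passed 2-fold. Against the second day 6 column the share was 18.7%, and the 2 columns of day 6 differed from each other by at least 2-fold in 19% of the same genes. Over genes at 1 FPKM or more in both columns of a pair, the robust SD of the log2 difference was 0.579 for day 8 against day 6, 0.589 for day 8 against the second column and 0.564 between the day 6 columns. Day 8 was thus about as far from either day 6 column as these were from each other. Of the 2-fold genes, 66.4% were higher on day 8 against the day 6 control. Against the second column, 1264 of the genes tested were at least 2-fold higher on day 8 and 886 lower.

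A stricter reading asked which genes lay at least 2-fold beyond both day 6 columns in 1 direction. Day 8 was above both in 622 genes, which is 5.4% of those tested, and below both in 316 genes, which is 2.74%. Both differences share the day 8 column, so they are not independent of each other. From the low values, the depth was estimated at 30400000 fragments for day 6, 7790000 fragments for the second column and 17900000 fragments for day 8. For a transcript of 2000 bases, 3 fragments then amount to 0.0493, 0.193 and 0.084 FPKM, which limits ratios of genes near those levels to counting error of a few fragments.

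**Figure D1:**
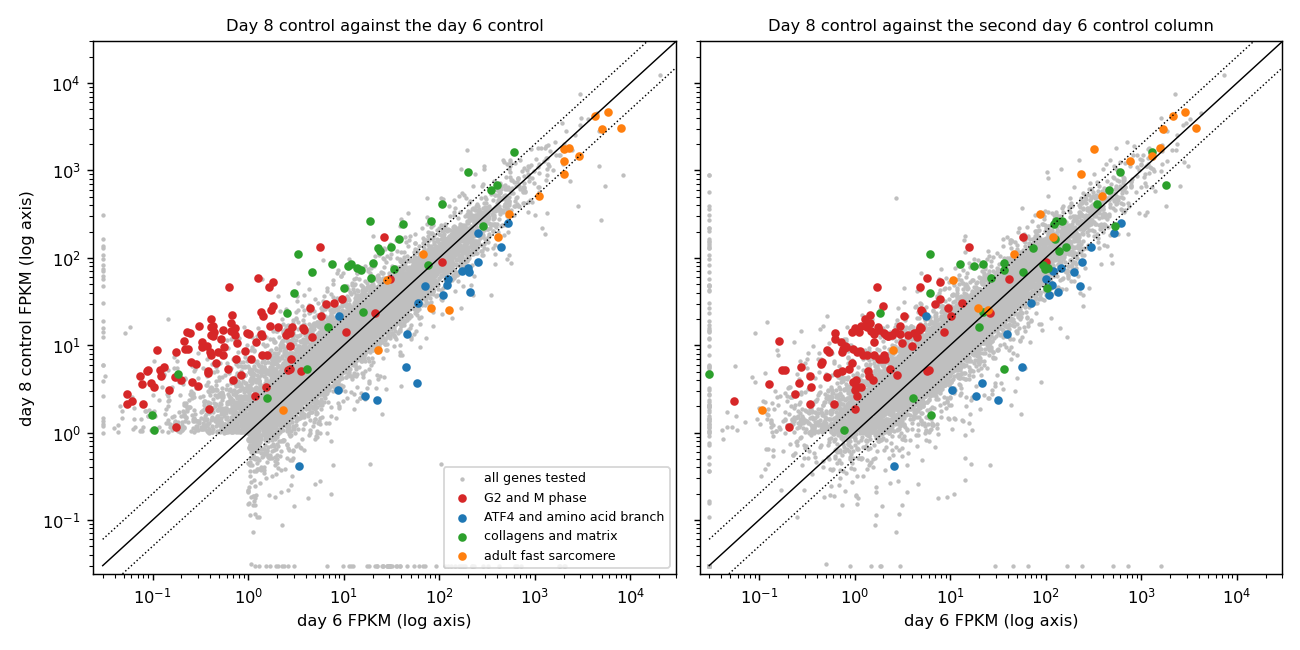
Level of each gene tested in the day 8 control (y, FPKM, log axis) against the day 6 control (left) and the second day 6 column (right, x, FPKM, log axis). Points are genes, values under 0.03 FPKM are drawn at 0.03, the solid line marks equal levels and the dotted lines a 2-fold difference before centring. Most G2 and M phase genes (red) lie above the upper dotted line in both panels and most ATF4 branch genes (blue) lie below the lower one, while collagens and matrix genes (green) lie above it mainly in the left panel and fast sarcomere genes (orange) change sides.

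Both cultures carried the defining transcripts of differentiated muscle. Myog, the myogenic factor of the differentiation step, was at 619 FPKM on day 6, 305 in the second column and 392 on day 8, against 0.164 in the growing day 0 control. Acta1, skeletal alpha-actin, was at 4282, 2164 and 4170 FPKM, against 3.93 on day 0. Markers of other cells were partly present. Of 10 adipocyte markers Pparg, Adipor2 and Cebpa reached 1 FPKM, while Adipoq and Plin1 were listed at 0 in all 3 columns. Of 10 osteoblast and chondrocyte markers 4 reached 1 FPKM. Of these 4, day 8 lay at least 2-fold above both day 6 columns in 1 and below both in 1. Each is 25% of the 4, against 5.4% and 2.74% of all genes tested. The one above was Dmp1, a bone matrix gene picked out after its values were seen, at 1.99, 0.274 and 14.5 FPKM. Of 15 markers of blood, endothelial and neural cells 2 reached 1 FPKM, and of 10 of epithelial and liver cells 2 did. The lists of lineage markers summed to between 50.2 and 62.8 FPKM for adipocytes, 22.6 and 40.8 for osteoblasts and chondrocytes, 2.03 and 6.4 for blood, endothelial and neural cells, and 2.14 and 13.4 for epithelial and liver cells across the 3 columns, and the part of such cells in the results was not tested.

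**Figure D2:**
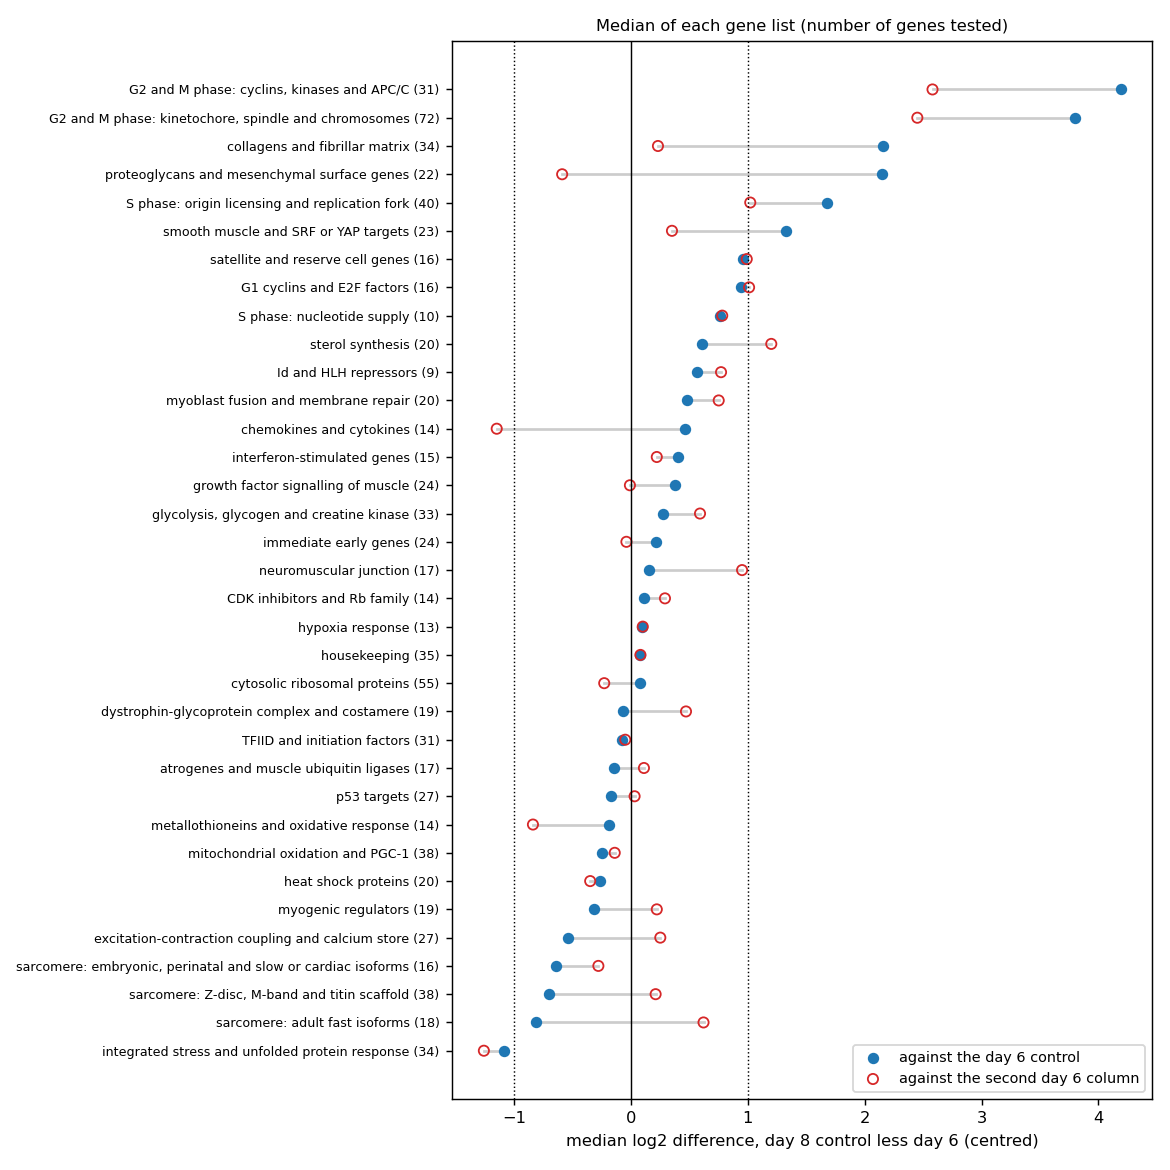
Median log2 difference of day 8 over day 6 (x, centred) for each gene list (y, number of genes tested in brackets), against the day 6 control (filled) and the second day 6 column (open). Dotted lines mark 2-fold. Both points of the G2 and M phase lists lie beyond the upper dotted line and both points of the stress response list beyond the lower one, whereas those of the collagen, proteoglycan and fast sarcomere lists are far apart.

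Genes of G2 and mitosis were higher on day 8 than on day 6. Mki67, the proliferation antigen that coats mitotic chromosomes, was at 0.629 FPKM on day 6, 1.73 in the second column and 46.7 on day 8. Top2a, the topoisomerase that untangles sister chromatids, was at 1.26, 5.67 and 59.1 FPKM. Day 8 was the high column for both, above both day 6 columns by more than the latter differed from each other: the log2 difference was 6.14 and 4.6 for Mki67 and 5.49 and 3.23 for Top2a, against the day 6 control and the second column in this order. Neither gene was back at its day 0 level of 96.1 and 193 FPKM.

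Of 104 genes listed for G2 and M phase, 103 were tested. On day 8, 96 were at least 2-fold higher, or 93.2% against 12.9% of all genes tested, and none was lower. Of these 103, 62 reached 1 FPKM on day 8 alone, so their inclusion already favoured a higher day 8 value. Among the other 41, which reached it in both columns, 34 were at least 2-fold higher with a median difference of 2.33, where 8.89% of all genes at 1 FPKM or more in both columns were that much higher. Day 8 lay above both day 6 columns in 93 of the 103 genes, or 90.3% against 5.4% of all genes tested. This count includes genes that entered through day 8 alone. The one gene left out, Depdc1b, was at 0.0393, 0.201 and 0.850 FPKM.

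All 103 genes were at 1 FPKM or more on day 0, a column that the filter did not use. The values that follow cover all 103, with the 62 that entered through day 8 alone, so the filter favoured higher day 8 values. The median gene stood at 1.33% of its day 0 level on day 6, at 3.26% in the second column and at 24% on day 8. The median level went from 41.5 FPKM on day 0 to 0.66 on day 6, 1.43 in the second column and 10.6 on day 8. For this list day 8 was therefore intermediate between growing myoblasts and day 6 myotubes. In RNA of whole cultures, more cells in the cycle and more RNA per cycling cell cannot be told apart.

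The mitotic kinases and their cyclins showed the order day 6, second column, day 8. Ccnb1, the cyclin that drives entry into mitosis, was at 0.432, 2.21 and 12.9 FPKM, and its kinase Cdk1 was at 0.768, 3.13 and 10.6 FPKM. Ccna2, which acts in S phase and G2, was at 0.677, 1.44 and 22.0 FPKM. Aurkb, the kinase of the chromosomal passenger complex, was at 0.174, 1.07 and 8.36 FPKM, and its partner Birc5 (survivin) at 1.66, 4.87 and 46.5. Against the second column the differences were 2.39 for Ccnb1, 1.61 for Cdk1, 3.78 for Ccna2, 2.81 for Aurkb and 3.11 for Birc5.

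Genes of mitotic exit and of the spindle followed the same order of columns. Cdc20 and Ube2c, the activator and the E2 enzyme of the anaphase-promoting complex, were at 0.443, 1.11 and 14.1 FPKM and at 1.80, 7.88 and 52.3 FPKM. Kif11, the motor that separates the spindle poles, was at 0.429, 1.32 and 16.7 FPKM, and Ndc80, which ties kinetochores to microtubules, was at 0.229, 0.937 and 14.1 FPKM. Foxm1 and Mybl2, transcription factors of the late cycle, were at 0.395, 0.534 and 8.27 FPKM and at 0.0783, 0.602 and 2.12 FPKM. The day 6 values of Mybl2 and of several others rest on a few fragments.

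The 7 listed genes that did not pass 2-fold against the day 6 control included some with uses outside mitosis. Bub3, a checkpoint protein with other nuclear roles, was at 21.1, 25.8 and 23.1 FPKM, a difference of 0.08. Fzr1, the anaphase-promoting complex activator of G1 and of resting cells, was at 10.53, 8.55 and 14.3 FPKM, and H2afz, a histone variant of many chromatin states, at 106, 101 and 88.6 FPKM. The remaining 4, Tuba1c, Smc4, Ncapd3 and H2afx, had differences between 0.45 and 0.93. These 7 were picked out after their values were seen.

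Promoter windows of this list often held CHR letters, the element of the DREAM complex, and CCAAT letters. In the RefSeq window from 250 bases before to 50 bases after the start, the CHR letters TTTGAA or TTCGAA on either strand were found in 58 of the 84 list genes with a window, which is 69%, against 21.7% of 27025 windows in all. The CCAAT letters, on either strand, were in 73.8% of them against 41.1% of all windows. Shown here are stretches ending at the base before the start of 3 of the genes with high day 8 levels, on GRCm38 and on the gene's strand, with every CHR and CCAAT match in capitals in either orientation (TTCAAA and ATTGG are the reverse forms). Top2a lies at chr11:99024190-99024339 on the minus strand, Ube2c at chr2:164769829-164769928 on the plus strand and Cdc20 at chr4:118437344-118437443 on the minus strand.
Top2a: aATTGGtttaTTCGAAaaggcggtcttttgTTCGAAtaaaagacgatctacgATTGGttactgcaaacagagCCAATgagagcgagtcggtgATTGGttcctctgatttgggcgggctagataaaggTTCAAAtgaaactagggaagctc
Ube2c: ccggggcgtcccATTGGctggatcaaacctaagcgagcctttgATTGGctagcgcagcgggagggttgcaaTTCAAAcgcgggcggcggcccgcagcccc
Cdc20: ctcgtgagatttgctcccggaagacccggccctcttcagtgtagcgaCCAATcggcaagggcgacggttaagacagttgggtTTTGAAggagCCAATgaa
Top2a shows 7 matches and Ube2c and Cdc20 show 3 each, with CHR letters near the start in all 3. A match of letters describes the sequence and does not show that a factor was bound in these cells.

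S phase genes were also higher on day 8, by less and with more exceptions. Of 51 listed genes 50 were tested, 33 (66.0%, against 12.9% of all genes tested) were at least 2-fold higher on day 8 than on day 6 and none was lower. Of these 50, 19 reached 1 FPKM on day 8 alone, and among the other 31 there were 15 at least 2-fold higher, with a median difference of 0.92, while 8.89% of all genes at 1 FPKM in both columns were. In 22 genes, or 44.0% against 5.4%, day 8 lay above both day 6 columns. As a share of day 0, the median S phase gene stood at 7.46% on day 6, 11.7% in the second column and 29.5% on day 8, so it had dropped less than the median G2 and M phase gene in either day 6 column.

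Licensing factors were among the genes with the lowest day 6 levels in this list. Cdc6, which loads the MCM helicase, was at 0.0633 FPKM on day 6, 0.270 in the second column and 1.44 on day 8, and Orc1, the largest subunit of the origin recognition complex, was at 0.0650, 0.458 and 1.17. Mcm5 was at 0.615, 1.42 and 9.18 FPKM and Mcm6 at 7.81, 18.7 and 35.2, while Mcm7 was at 16.5, 16.4 and 31.5. The 6 subunits of 1 hexamer thus had differences from 0.87 for Mcm7 to 3.82 for Mcm5. Mcm7 stayed below 2-fold against either column, with 0.79 against the second, and Mcm6 stayed below 2-fold against the second. Day 8 lay above both columns in 2 of the 6, or 33.3% against 5.4% of all genes tested.

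Some genes of this list were already well above 1 FPKM on day 6. Pcna, the sliding clamp, was at 55.5, 63.8 and 95.8 FPKM, and Rrm1 and Rrm2, the subunits of ribonucleotide reductase, were at 29.3, 26.01 and 53.4 FPKM and at 30.04, 13.5 and 51.4 FPKM. Rpa2, of the single-strand binding complex, was at 6.62, 7.19 and 7.42 FPKM, and Gins4 at 22.2, 23.9 and 21.2. Uhrf1 and Clspn, the maintenance methylation cofactor and the fork checkpoint adaptor, lay at the other end with 0.217, 1.06 and 9.09 FPKM and 0.178, 0.612 and 6.57 FPKM. The list therefore held genes without a 2-fold difference beside genes that were more than 8-fold higher, of which there were 12. The one left out, the exonuclease gene Exo1, was at 0.00574, 0.0882 and 0.946 FPKM.

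E2F letters marked the S phase promoters more than the G2 and M phase ones. TTTCCCGC, TTTCGCGC, TTTGCCGC or TTTGGCGC on either strand was in 17 of 42 windows of S phase genes, which is 40.5%, in 9.52% of those of G2 and M phase genes and in 2.6% of all windows, while the CHR letters were in 16.7% of the S phase windows. Mcm5 and Mcm6 are shown as 2 subunits of the hexamer with large differences against the day 6 control, with E2F matches in capitals. In both an overlap of a forward and a reverse match makes a run of 12 capitals. Mcm5 lies at chr8:75109339-75109508 on the plus strand and Mcm6 at chr1:128359706-128359835 on the minus strand, both ending at the base before the start.
Mcm5: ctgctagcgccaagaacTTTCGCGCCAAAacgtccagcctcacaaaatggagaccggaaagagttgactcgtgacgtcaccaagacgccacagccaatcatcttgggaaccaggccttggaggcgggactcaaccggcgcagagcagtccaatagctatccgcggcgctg
Mcm6: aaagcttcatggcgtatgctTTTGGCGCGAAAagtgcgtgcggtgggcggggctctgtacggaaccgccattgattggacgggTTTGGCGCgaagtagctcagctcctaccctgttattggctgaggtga
Mcm5 held 2 matches and Mcm6 held 3.

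**Figure D3:**
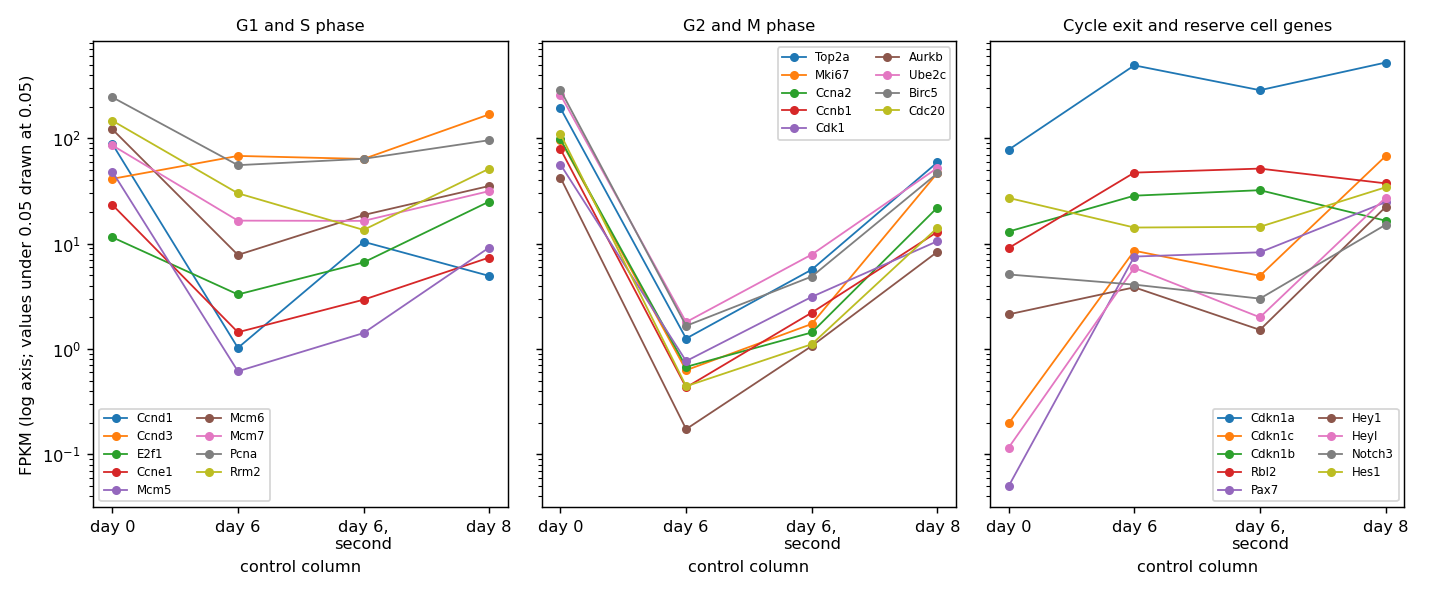
Level (y, FPKM, log axis, values under 0.05 drawn at 0.05) of selected genes in the 4 control columns (x), with 1 value per column and lines that only join the values of a gene. The G2 and M phase genes (middle) share 1 order of columns, lowest on day 6 and below day 0 on day 8, while Cdkn1a, Cdkn1c, Pax7 and Heyl (right) were higher on day 8 than on day 0.

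Regulators upstream of S phase were mixed. Of 16 G1 cyclins and E2F factors tested, 8 were at least 2-fold higher on day 8, or 50% against 12.9% of all genes tested. Of these 8, 7 were above both day 6 columns, or 43.8% of the 16 against 5.4%. E2f1, an activating factor, was at 3.29, 6.63 and 25.1 FPKM, and E2f7, a repressing one, was at 0.0289, 0.266 and 3.88. Ccne1, the cyclin of S phase entry, was at 1.44, 2.94 and 7.38 FPKM. Ccnd3, the D cyclin that stays on in differentiated muscle, was at 67.9, 63.6 and 168 FPKM.

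The values of the other D cyclins were far apart in the day 6 columns. Ccnd1 was at 1.03 FPKM on day 6, 10.4 in the second column and 4.94 on day 8, so its difference was 2.20 against the day 6 control and -1.22 against the second. Ccnd2 was at 1.70, 13.4 and 1.39 FPKM. Ccnd2 had differences of -0.34 and -3.40 against the day 6 control and the second column, so the direction turned for Ccnd1 and not for Ccnd2.

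Of 14 CDK inhibitors and Rb-family genes tested, 4 were at least 2-fold higher on day 8, which is 28.6% against 12.9% of all genes tested, and none was lower, with a median of 0.11. Day 8 lay above both day 6 columns in 1 of them, or 7.14% against 5.4%. Cdkn1a (p21), the inhibitor induced early in myogenesis, was at 491, 286 and 522 FPKM, against 77.8 on day 0. Cdkn1b (p27) was at 28.5, 32.1 and 16.5 FPKM. Rb1 and its relative Rbl2 (p130), which silence E2F genes in resting cells, were at 49.2, 34.6 and 40.3 FPKM and at 47.2, 51.5 and 37.3 FPKM.

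Cdkn1c (p57) was the one inhibitor above both day 6 columns. It was at 8.56 FPKM on day 6, 4.95 in the second column and 67.7 on day 8, a difference of 2.93 and 3.62, while the growing cells had 0.197 FPKM. The day 8 culture thus combined G2 and M phase transcripts at a part of their day 0 level with p21 and p57 transcripts above theirs. One population with both and a mixture of populations cannot be told apart in these libraries.

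Pax7 and 5 genes of Notch signalling were higher on day 8 than in both day 6 columns. Pax7, the transcription factor of satellite cells, was listed at 0 on day 0 and was at 7.54 FPKM on day 6, 8.27 in the second column and 24.7 on day 8. The Notch target genes Hey1 and Heyl, which encode repressors, were at 3.85, 1.52 and 22.2 FPKM and at 5.89, 2.00 and 27.2 FPKM. Their receptors Notch1 and Notch3 were at 4.15, 2.68 and 11.2 FPKM and at 4.08, 3.01 and 15.1 FPKM, and the target Hes1 was at 14.2, 14.4 and 34.2 FPKM. In all 6 genes day 8 was the high column and both day 6 columns lay close together or below it by at least 2-fold.

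Of the 20 genes listed for satellite and reserve cells, 16 were tested. On day 8, 8 were at least 2-fold higher, or 50% against 12.9% of all genes tested, and none was lower. Day 8 lay above both day 6 columns in 6 of the 16, or 37.5% against 5.4%. The median difference was 0.96 and 0.99. The 5 Notch receptors and targets among them were grouped after their values were seen and had a median of 1.83 and 2.18. Myf5, the myogenic factor of undifferentiated myoblasts, was at 3.52, 4.79 and 7.36 FPKM, below 2-fold against the second column. Cd34, a surface protein of quiescent satellite cells, went from 1.59 FPKM on day 6 to 7.22 on day 8 but was at 27.8 in the second column, and Spry1 and Sdc4 had differences of -0.25 and -0.03. The repressor gene Msc (MyoR), which opposes MyoD in myoblasts, was at 0.0604, 0.155 and 2.58 FPKM, and Id1 and Id3 were at 17.3, 13.9 and 26.2 FPKM and at 24.9, 35.4 and 47.2 FPKM, each below 2-fold.

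Genes of the integrated stress response were lower on day 8. Trib3, a pseudokinase induced by ATF4, was at 44.5 FPKM on day 6, 57.1 in the second column and 5.62 on day 8. Atf3, a stress-induced factor that acts with ATF4, was at 22.2, 31.6 and 2.34 FPKM. Vldlr, a lipoprotein receptor that ATF4 induces, was at 58.0, 21.7 and 3.72 FPKM. Day 8 was the low column by at least 2-fold in each, with differences of -3.04 and -3.49 for Trib3, -3.29 and -3.89 for Atf3 and -4.01 and -2.69 for Vldlr.

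Of 34 genes of the stress and unfolded protein responses, 18 were at least 2-fold lower on day 8 and 2 were higher. The lower genes were 52.9% of the list, against 6.54% of all genes tested. Day 8 lay below both day 6 columns in 16, or 47.1% against 2.74%, with a median of -1.09 and -1.26. Among the 33 at 1 FPKM or more in both columns, 17 were lower, against 5.07% of all such genes. The lower genes all belonged to the ATF4 and amino acid branch, a division of the list made after its values were seen. Of its 21 genes 18 were at least 2-fold lower and 16 below both columns, and its median level was 109 FPKM in both day 6 columns, 40.1 on day 8 and 57.1 on day 0. The exception in the other direction was Ddit4, an mTORC1 inhibitor with several inputs, at 9.001, 5.53 and 21.3 FPKM.

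The amino acid genes of the branch named here were lower on day 8 than in either day 6 column. Asns, asparagine synthetase, was at 205, 198 and 68.5 FPKM, and Slc3a2 and Slc7a5, the chains of a large neutral amino acid exchanger, were at 253, 240 and 90.3 FPKM and at 198, 144 and 76.2. Shmt2 and Mthfd2, enzymes of mitochondrial one-carbon metabolism, were at 121, 116 and 49.0 FPKM and at 211, 134 and 40.1. Psat1 and Phgdh, of serine synthesis, passed 2-fold against the day 6 control with -1.32 and -1.16 but not against the second column with -0.88 and -0.94. Slc7a11, the cystine transporter, was at 3.39, 2.55 and 0.410 FPKM, and Chac1, which degrades glutathione, at 45.8, 39.0 and 13.5.

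The secreted factors and the regulators of the branch followed. Fgf21, a hormone that stressed muscle releases, was at 438, 299 and 135 FPKM, and Gdf15, another stress hormone, was at 16.8, 18.5 and 2.65. Atf4 was at 526, 614 and 250 FPKM and Atf5 at 109, 109 and 37.2, and Ppp1r15a (GADD34), which ends the response by dephosphorylating eIF2, was at 59.8, 69.8 and 30.02 FPKM. Ddit3 (CHOP) was at 71.6, 226 and 47.6 FPKM and Nupr1 at 253, 519 and 192, so both were lower on day 8 by less than 2-fold against the day 6 control and by more against the second. Outside the list, the cystathionine lyase gene Cth was at 27.8, 35.4 and 3.17 FPKM, and Adm2, a peptide hormone gene, at 16.6, 7.51 and 2.41, both among the 12 largest decreases of all genes.

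The ER folding branch did not share this direction. Its 13 genes had a median of 0.42 against the day 6 control and -0.21 against the second column, with 1 at least 2-fold higher and none lower. Hspa5 (BiP), the chief ER chaperone, was at 484, 781 and 643 FPKM, and Calr, which folds glycoproteins, at 765, 1257 and 1064. Xbp1 was at 56.8, 59.1 and 66.1 FPKM. In Hspa5 and Calr day 8 lay between the day 6 columns. The heat shock list of 20 held 3 genes at least 2-fold lower, or 15% against 6.54% of all genes tested, and none higher.

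Promoter windows of the ATF4 branch held the composite letters of ATF4 and C/EBP more often than others. TGATGNAA on either strand was in 8 of 20 windows, which is 40%, in 1 of 12 windows of the ER folding branch, which is 8.33%, and in 4.51% of all windows. This motif was chosen after the list's values were seen. Stretches of 5 holders are shown on GRCm38 and on the gene's strand with the match in capitals (TTGCATCA is the reverse form). They lie at chr1:191183411-191183468 (Atf3, minus), chr2:119351024-119351081 (Chac1, plus), chr7:45615597-45615654 (Fgf21, minus), chr19:27216795-27216852 (Vldlr, plus) and chr3:50443628-50443704 (Slc7a11, minus).
Atf3: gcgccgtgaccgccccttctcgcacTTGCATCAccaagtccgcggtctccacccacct
Chac1: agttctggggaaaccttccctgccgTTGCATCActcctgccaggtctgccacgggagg
Fgf21: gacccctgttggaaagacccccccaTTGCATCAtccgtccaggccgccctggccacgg
Vldlr: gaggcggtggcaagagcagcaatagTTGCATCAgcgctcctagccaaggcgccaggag
Slc7a11: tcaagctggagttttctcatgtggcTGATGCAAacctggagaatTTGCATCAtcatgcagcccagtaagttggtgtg
All 5 carried the same 8 letters, TTGCATCA, and Slc7a11 carried them in both orientations.

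**Figure D4:**
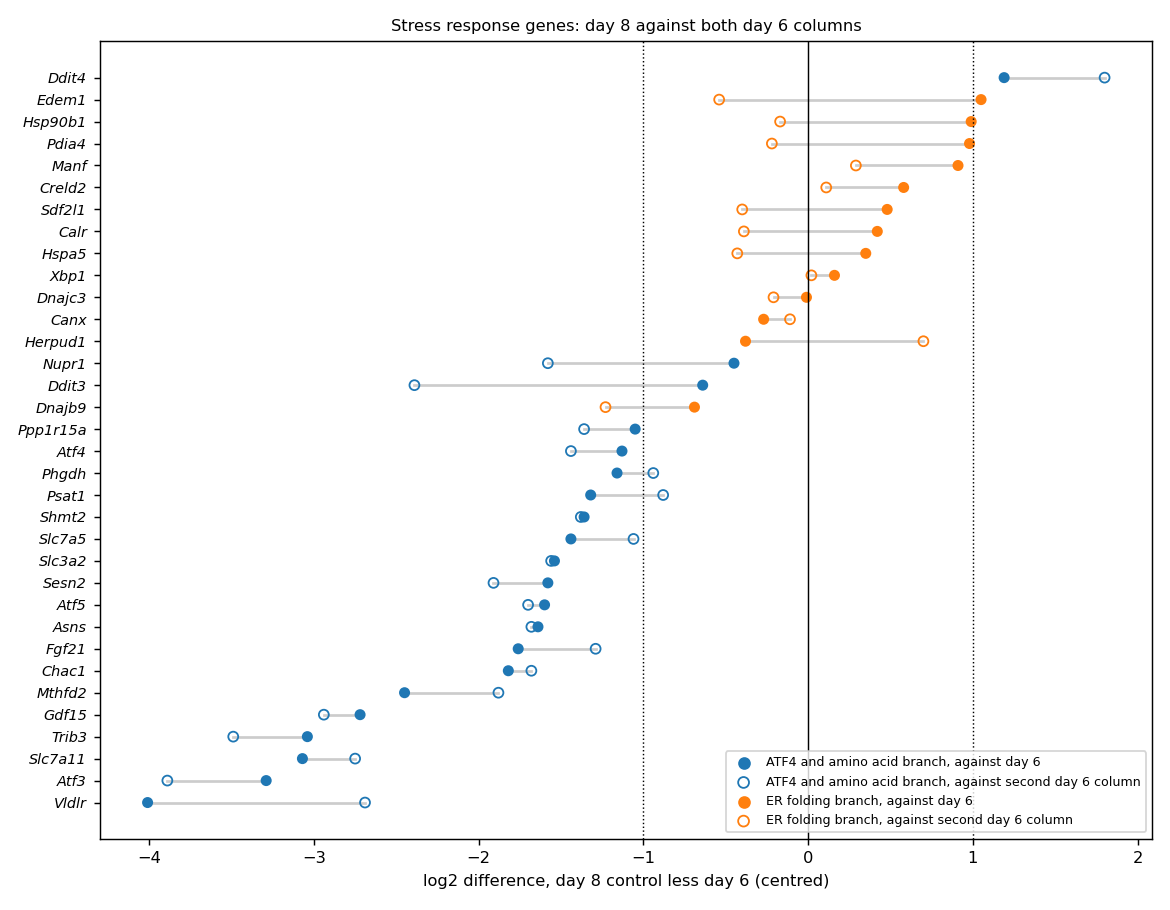
Log2 difference of day 8 over day 6 (x, centred) for the 34 genes of the stress and unfolded protein responses (y), against the day 6 control (filled) and the second day 6 column (open), for the ATF4 and amino acid branch (blue) and the ER folding branch (orange). Dotted lines mark 2-fold. In the blue branch 16 genes lie left of the lower dotted line with both points and Ddit4 lies right of the upper one, while the orange points lie between Dnajb9 at -1.23 and Edem1 at 1.05.

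Contractile genes had no common direction once both day 6 columns were used. Of 72 sarcomere genes tested, 24 were at least 2-fold lower on day 8 than on day 6, with a median of -0.71. This is 33.3% against 6.54% of all genes tested. Higher were 2 (Fhl3, and Xirp2 from a listed 0), or 2.78% against 12.9%. Against the second column the median was 0.32, with 15 genes at least 2-fold higher and 13 lower. The day 8 control lay below both columns in 8 genes, or 11.1% against 2.74% of all genes tested. It lay above both in 1, Fhl3, or 1.39% against 5.4%. The second column was at least 2-fold below the day 6 control in 34 of the 72 genes.

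Adult fast isoforms were the clearest case of this dependence. Myh1, the fast IIx myosin heavy chain, was at 2029 FPKM on day 6, 235 in the second column and 919 on day 8. Atp2a1, the fast calcium pump, was at 530, 86.1 and 319 FPKM, and Tnnc2, fast troponin C, at 2015, 319 and 1756. Each day 8 value lay between those of day 6, with differences of -1.20 and 1.82 for Myh1, -0.79 and 1.74 for Atp2a1 and -0.25 and 2.32 for Tnnc2. None of the 18 fast isoform genes lay at least 2-fold beyond both columns.

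The 8 sarcomere genes below both columns, picked out after their values were seen, were 3 of the 16 embryonic, slow or cardiac isoform genes, a list with medians of -0.64 and -0.28, and 5 of the 38 Z-disc and scaffold genes. Myl2, the slow and ventricular regulatory light chain, was at 346, 244 and 37.8 FPKM, with differences of -3.25 and -2.84. Ankrd1, a stretch-responsive titin-binding repressor, was at 4645, 3116 and 1134 FPKM, and Csrp3, a Z-disc LIM protein, at 369, 253 and 130. The others of the 8 were Smpx, Fhl1, Lmod2, Myoz2 and Nrap, which bind actin, titin or the Z-disc and had differences from -1.95 to -1.13 against the day 6 control. Ankrd2, a relative of Ankrd1 outside the list, was at 556, 498 and 88.4 FPKM.

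Developmental myosins split. Myh3, the embryonic heavy chain, was at 616, 676 and 1218 FPKM, higher on day 8 by 0.93 and 0.70, and Myh8, the perinatal chain, at 507, 152 and 96.6, below 2-fold against the second column at -0.80. Xirp2 was listed at 0 on day 6, at 166 FPKM in the second column and at 12.3 on day 8, and no fold is given for it. Ckm, muscle creatine kinase, was at 219, 78.1 and 306 FPKM. Myod1 and Mef2c, regulators of the muscle programme, were at 155, 83.5 and 127 FPKM and at 97.8, 50.0 and 48.6 FPKM.

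Excitation-contraction genes, like the fast isoforms, had medians of opposite sign against the day 6 columns. Of 27 genes of excitation-contraction coupling 5 were at least 2-fold lower on day 8, which is 18.5% against 6.54% of all genes tested. In the other direction 1 was higher, or 3.7% against 12.9%, and the median was -0.54 and 0.25. None lay at least 2-fold beyond both columns. Ryr1, the calcium release channel, was at 133, 67.2 and 84.1 FPKM, between the day 6 columns. Of 17 neuromuscular junction genes 3 were at least 2-fold higher on day 8, which is 17.6% against 12.9% of all genes tested, and 3 of the 17 reached 1 FPKM on day 8 alone. Among the 14 at 1 FPKM in both columns 1 was at least 2-fold higher. Day 8 lay above both columns in 2, or 11.8% against 5.4%, namely Ache (acetylcholinesterase) at 0.7997, 0.414 and 1.69 FPKM and Chrne at 0.922, 0.674 and 1.97, both under 1 FPKM on day 6. Chrne is the adult subunit of the acetylcholine receptor, and Chrng, the fetal subunit, was at 744, 184 and 426 FPKM.

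Matrix genes were mostly higher on day 8 than on the day 6 control, and only some were higher than both columns. Of 34 collagen and fibrillar matrix genes 27 were at least 2-fold higher, which is 79.4% against 12.9% of all genes tested. None was lower and the median was 2.16. Of the 34 genes, 3 reached 1 FPKM on day 8 alone. Among the other 31, at 1 FPKM in both columns, 24 were higher, against 8.89% of all such genes. Against the second column the median was 0.23, with 8 genes at least 2-fold higher and 5 lower, and the second column itself was at least 2-fold above the day 6 control in 21. Col1a1, the main chain of fibrillar collagen, was at 4.605 FPKM on day 6, 57.5 in the second column and 69.1 on day 8, so its difference was 3.85 and 0.12. The median of the second column over the day 6 control was 1.52 in this list.

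The 8 genes above both columns were Tnc, Col5a1, Col5a3 and 5 basement membrane and network collagens. They were 23.5% of the list, against 5.4% of all genes tested. Tnc, the matrix glycoprotein tenascin-C of regenerating and developing tissue, was at 3.28, 6.20 and 111 FPKM, with differences of 5.01 and 4.01. Col4a1 and Col4a2, the basement membrane collagen chains that are transcribed from 1 shared promoter region, were at 11.1, 17.8 and 80.1 FPKM and at 11.9, 22.3 and 85.7. Col18a1, another basement membrane collagen, was at 7.57, 12.7 and 84.5 FPKM, Col6a3 at 3.04, 6.13 and 39.8, and Col5a3 at 2.53, 1.83 and 23.1. Of the 7 basement membrane and network collagens, grouped after their values were seen, all were at least 2-fold higher than the day 6 control and 5 above both columns, with medians of 2.79 and 2.02.

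Proteoglycan and mesenchymal surface genes changed sides with the day 6 column. Of the 22 tested of 30, 17 were at least 2-fold higher on day 8 than on the day 6 control. These were 77.3% of the 22, against 12.9% of all genes tested. Of the 22, 3 reached 1 FPKM on day 8 alone. Among the other 19, at 1 FPKM in both columns, 14 were higher, against 8.89% of all such genes. Day 8 lay above both columns in 5, or 22.7% against 5.4%, and the median was 2.15 and -0.59. Bgn (biglycan) was at 194, 2089 and 1714 FPKM and Timp3, an inhibitor of metalloproteinases, at 11.1, 256 and 77.3. Cd44, the hyaluronan receptor, was at 28.6, 32.9 and 105 FPKM and Vcan (versican) at 3.28, 8.81 and 31.9, both above both columns. Dcn (decorin), a fibroblast gene, was at 7.94, 50.3 and 4.19 FPKM, lowest on day 8. Fmod (fibromodulin) had 0.0573 FPKM on day 6, near the level of 3 fragments, 0.837 in the second column and 16.2 on day 8.

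**Figure D5:**
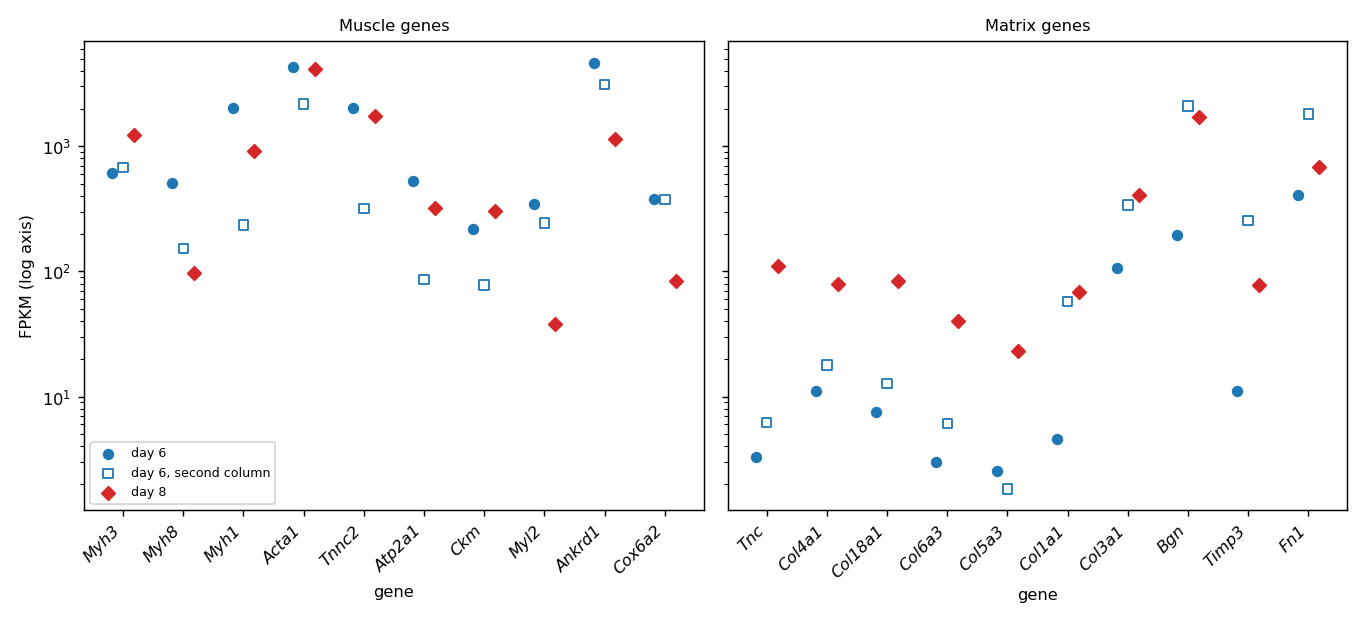
Level (y, FPKM, log axis) of 10 muscle genes (left) and 10 matrix genes (right) in the day 6 control (circles), the second day 6 column (squares) and the day 8 control (diamonds), with 1 value per column. Day 8 lies between both day 6 values for Myh1, Acta1, Tnnc2 and Atp2a1 and below both for Myh8, Myl2, Ankrd1 and Cox6a2. It lies above both for Myh3, Ckm, the first 5 matrix genes and Col1a1.

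Actin regulators of smooth muscle and of SRF or YAP control were partly higher. Of 23 genes 12 were at least 2-fold higher than the day 6 control (52.2% against 12.9% of all genes tested) and 1 was lower. Day 8 lay above both columns in 3, or 13% against 5.4%, and the median was 1.33 and 0.35. These 3 were Actg1, cytoplasmic gamma-actin, at 171, 248 and 552 FPKM, Tpm4 at 47.1, 118 and 330, and Tagln at 25.9, 39.3 and 100. Csrp2 and Basp1, not of this list but among the 12 largest increases, were at 6.09, 59.2 and 94.6 FPKM and at 3.34, 31.4 and 51.3, so their second column was nearer to day 8. Cilp, a cartilage matrix gene of the same 12, was at 1.39, 43.3 and 57.3 FPKM.

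Of 38 mitochondrial genes 7 were at least 2-fold lower on day 8 than in the day 6 control, which is 18.4% against 6.54% of all genes tested, and 1 was higher. Day 8 lay below both columns in 6, or 15.8% against 2.74% of all genes tested, and the list medians were -0.25 and -0.14. Cox6a2, the heart and skeletal muscle subunit of cytochrome oxidase, was at 379, 375 and 84.7 FPKM, and Cox8b, another muscle subunit, at 134, 37.4 and 20.7, while their widely used counterparts Cox6a1 and Cox8a were at 50.0, 73.2 and 53.1 FPKM and at 91.4, 114 and 79.7. Fabp3, the muscle fatty acid carrier, was at 225, 102 and 37.7 FPKM, Lpl, lipoprotein lipase, at 9.44, 27.4 and 3.11, and Pdk4, a brake on pyruvate oxidation, at 8.61, 10.1 and 3.81. Hk2, the insulin-responsive hexokinase, was at 61.1, 38.2 and 20.6 FPKM and Eno1, the widely expressed enolase, at 44.5, 60.1 and 150, whereas the muscle enolase gene Eno3 was at 943, 104 and 817.

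The genes the study was about did not pass 2-fold. Huwe1 was at 35.2 FPKM on day 6, 44.7 in the second column and 55.5 on day 8, a difference of 0.60 and 0.17, and Usp10 at 13.2, 10.3 and 14.5, a difference of 0.08 and 0.34. Tbp was at 10.8, 27.8 and 15.9 FPKM, between the day 6 columns. Of 31 TFIID and initiation factor genes 1 was at least 2-fold higher on day 8, or 3.23% against 12.9% of all genes tested. Lower were 2, or 6.45% against 6.54%, and the median was -0.08 and -0.05. The 35 housekeeping genes had a median of 0.08 against either column, with Gapdh at 547, 511 and 845 FPKM.

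Counts in the remaining lists are to be read against the shares of all genes tested, which were 12.9% at least 2-fold higher, 6.54% lower, 5.4% above both day 6 columns and 2.74% below both. Of 27 p53 targets 6 were at least 2-fold higher and 5 lower on day 8, with Gadd45a, a growth arrest gene that ATF4 also induces, at 1331, 939 and 330 FPKM. Of 24 immediate early genes 5 were higher. Egr2, Egr3 and Klf2, which are 12.5% of the list, lay above both columns, with Egr3 at 1.71, 0.772 and 11.7 FPKM. Of the 24, 3 reached 1 FPKM on day 8 alone, so their inclusion favoured a higher day 8 value. Among the 21 at 1 FPKM in both columns 2 were higher, where 8.89% of all such genes were. Of 24 growth factor genes 7 were higher and 3 lower, and Igf1, the growth factor of muscle repair, was the one above both columns at 9.44, 24.3 and 61.3 FPKM. Of 14 cytokine genes 4 were higher and 3 lower, and day 8 lay below both columns in 3, or 21.4%. The median was 0.46 against the day 6 control and -1.15 against the second column. Of the 14, 4 reached 1 FPKM on day 6 alone and 2 on day 8 alone. Among the 8 at 1 FPKM in both columns 2 were higher and none lower. The 3 lower genes had thus all entered through day 6 alone, which favoured a lower day 8 value. Counts of genes at least 2-fold higher and lower were 6 and 7 of 33 for glycolysis, 2 and 0 of 13 for the hypoxia response (both of the 2 above both columns, or 15.4%), 2 and 1 of 14 for metallothioneins and the oxidative response, 3 and 2 of 15 for interferon-stimulated genes, 0 and 1 of 17 for atrophy-related ubiquitin ligases, 3 and 3 of 19 for the dystrophin complex and 1 and 2 of 55 for ribosomal proteins.

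The ranking of largest decreases also held genes whose counts are uncertain. It covered genes at 10 FPKM or more in the higher column and 1 FPKM or more in both. Snord34, Snord82 and Snord57 are small nucleolar RNAs inside host genes, which a count of spliced mRNA does not separate, and Snord34 was listed at 0 in the second column. Bglap2 was at 39.6, 29.3 and 3.42 FPKM and has near-identical neighbours that share reads. Cdsn, an adhesion gene best known from skin, was at 25.3, 55.0 and 1.62 FPKM, and Limch1, an actomyosin regulator, at 12.9, 6.17 and 1.85.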

How the data were processed

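RNA-seq of C2C12 control cultures was taken from the deposited tables of gene FPKM values, which the authors made with Tophat and Cuffdiff per the methods, and with Bowtie2, Cuffdiff and mm10 per the submitters' processing notes; tool versions are not given in the sources used here. The tables also hold the authors' own fold changes, test statistics, p-values and q-values, which were not used. Each table was normalized separately, and no replicate was available for a control.

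The day 8 and day 6 control columns were joined on the gene identifier, genes at 1 FPKM or more in either were kept, 0.01 FPKM was added, and log2 ratios were centred on the median of genes at 1 FPKM or more in both. A count of 2-fold genes and a median stand in for a test. Depth was estimated from the steps of low FPKM values in genes of at least 1500 bases. The steps were tested on simulated data. Of 23417 symbols 21709 matched RefSeq, and 98.8% of the matched loci overlapped. Promoter windows came from RefSeq (GRCm38).

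Named genes were the 12 largest differences in each direction, genes the study is about, and members of 39 lists. The 12 were ranked among genes with a higher value of at least 10 FPKM and 1 FPKM or more in both columns. Those genes also had status OK on both days and a locus of at least 500 bases. Members and lists were chosen with earlier results of these data known, and further list members were named after their values were seen. Python 3.11.15, numpy 2.4.6 and pandas 2.3.3 were used. Alternatives were other pseudocounts, filters, centring and the second day 6 column. Some genes are not reported here.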

Additional observations from a re-analysis of the deposited data

How the results depend on the processing

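Each control column held 1 value per gene, so no replicate could be left out. Medians and named genes were compared with the spread between the day 6 columns, 0.56 on the log2 scale. Counts were compared with a fixed fold limit instead. No paired analysis was possible because each control is 1 library and the comparison has no test. Other centrings, loci of 500 bases or more, and genes with status OK in both tables moved no count, list median or named gene past these limits. Counts still shifted within the limit. Centred on the housekeeping list, 871 genes were at least 2-fold lower, against 754. With no centring 258 lay below both day 6 columns, against 316. With a pseudocount of 1 FPKM, 386 genes lay above both day 6 columns, 199 below, and the G2 and M phase median was 2.40. With at least 5 FPKM in either column, 895 genes were at least 2-fold higher on day 8, 361 lay above both and 202 below both. With at least 1 FPKM in both columns, 935 genes were higher and 315 above both, the S phase median was 0.92 and the G2 and M phase median 2.33. With no filter, 4373 genes were higher, 1888 lower, 2570 above both and 741 below both. The 3 filter settings change which low genes enter, while the pseudocount of 1 FPKM was run on the same 11525 genes.

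With the second day 6 column in place of the first, which also changes the genes that pass the filter, the median turned to 0.62 for adult fast sarcomere genes, 0.18 for Z-disc and titin scaffold genes, 0.25 for excitation-contraction coupling, 0.28 for all sarcomere genes, 0.81 for acetylcholine receptor subunits and -0.59 for proteoglycans. The collagen median moved to 0.23, that of S phase genes to 0.97 and that of G2 and M phase genes to 2.51. Among named genes at least 2-fold from the day 6 control in the reported values, the direction turned for Bgn (-0.43), Ccnd1 (-1.22), Cd34 (-2.09), Timp3 (-1.87), Edem1 (-0.54) and Myh1 (1.82). The sign also turned in named genes under 2-fold, such as Atp2a1 (1.74), Tnnc2 (2.32), Tbp (-0.95) and Myog (0.22), and beside the 6 above, 87 named genes moved by more than the spread between the day 6 columns, these included. The cause was not tested. Genes near the level of 3 fragments are limited by depth, most of all in the second column.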

Other observations

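Genes of sterol synthesis were higher on day 8 against the second day 6 column more than against the day 6 control. The 20 genes had a median of 0.61 and 1.20. Stard4, a sterol carrier, was the one gene at least 2-fold above both columns, at 3.29, 2.73 and 8.88 FPKM. This is 5% of the list, against 5.4% of all genes tested.

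Of 20 genes of myoblast fusion 5 were at least 2-fold higher on day 8, or 25% against 12.9% of all genes tested. Against the same day 6 control 2 were lower, or 10% against 6.54%. Tmem8c (myomaker), which makes myoblasts fusion-competent, was at 1400, 516 and 1124 FPKM, and Gm7325 (myomixer), its small partner, was at 30.3, 14.3 and 47.2. Adam12, a membrane metalloprotease of fusing myoblasts, was at 2.94, 4.95 and 14.2 FPKM and lay above both day 6 columns.

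The Huwe1 knockdown columns of the same tables, which pool 2 lines each, give values for both days. Per the paper, the day 6 cells were depleted of Huwe1 as myoblasts and did not form myotubes efficiently. For the day 8 cells, the methods describe lentivirus added to formed myotubes on differentiation day 4. Day of differentiation and stage of knockdown therefore cannot be told apart between these columns. The shRNA sequences of the day 6 and the day 8 lines differ per the labels, and the difference between knockdown and control was not tested. The median difference of day 8 over day 6 in the knockdown was -0.25 for the G2 and M phase genes, where the median level was 1.76 FPKM on day 6 and 1.79 on day 8. It was -1.86 for the ATF4 and amino acid branch, with median levels of 80.2 and 15.8 FPKM, and 1.82 for the Notch receptors and targets, with 2.07 and 11.2 FPKM.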
